A study of Homo sapiens with 8 samples.

Results

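OR21, a DNA demethylating agent, was added to MT-2 cells that also received EPZ-6438, and the array of the combination was set against the array of EPZ-6438 alone. The question is what demethylation adds where EZH2 is already inhibited. MT-2 is a human T cell line that carries HTLV-1, the retrovirus behind adult T cell leukaemia (ATL). Combination-treated MT-2 cells received 100 nM OR21 and 500 nM EPZ-6438, and EPZ-6438-treated MT-2 cells received 500 nM EPZ-6438. The other MT-2 arrays hold cells given 100 nM OR21 alone and untreated cells. All were cultured for 96 h, with each compound added at seeding and again at 48 h. The 8 arrays of the series include the same 4 conditions in MT-1, an ATL line, at 500 nM OR21 and 2500 nM EPZ-6438. All 17709 transcript probe sets with a gene symbol, of 21448 on the arrays, were followed, as 17687 genes. There is 1 array a side, so no difference below has a replicate error or a test, each line stands as a single culture per condition, and "higher" and "lower" describe these 2 arrays only.

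Methylation of cytosines in CpG dinucleotides, kept up by DNMT1 at replication, silences many germline and tissue-restricted genes. Where its upkeep is blocked, it is lost over successive divisions. EZH2 is the catalytic subunit of Polycomb repressive complex 2 (PRC2), which places the repressive mark H3K27me3 on histone H3, and EPZ-6438 (tazemetostat) blocks its activity. Chemokines, cytokines and ligands of killer cell receptors, which set how T cells interact with other immune cells, are among the genes such marks can hold silent. Neither mark was measured here.

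Levels are log2 values. The background level of an array is the 95th percentile of its negative-control probe sets, 7.64 on the combination array and 7.43 on the EPZ-6438 array. Where 1 of the 2 levels lay at or under background it was replaced by that array's background level, and the difference is written "at least" or "or lower". A gene seen on 1 array alone had to exceed the background levels of both, which left out 203 genes that were above background on the EPZ-6438 array only. On this footing 7722 genes were measured, 7235 of them above background on both arrays, 213 on the combination array alone and 274 on the EPZ-6438 array alone. Genes of the last 2 kinds can only differ in 1 direction, so counts over measured genes are descriptions, and the medians of gene lists are given over all members on the array from the deposited values. Of the 9 T cell markers examined, CD4, CD5 and the interleukin-2 receptor chain IL2RA stood above background on both arrays, while CD2, the CD3 chains, LCK and PTPRC did not. Of other lineages, the B cell genes BLK, CD79A and EBF1, the NK cell gene NKG7 and the epithelial keratin KRT8 stood above background on both arrays. So did SPARC, ACTA2, COL1A2, ENG and VIM, 5 of the 17 genes on the array from the list of endothelial and fibroblast genes. Most markers examined for these lineages did not. Above background on the combination array were 2 of 5 B cell markers (3 on the EPZ-6438 array). On each of the 2 arrays 1 of 4 NK cell, 1 of 6 epithelial and 0 of 5 fibroblast and endothelial markers stood above background. The part of such genes in the results was not tested. The 5 myeloid and 3 erythroid markers examined on the array were at or under background on both arrays. In bulk RNA, fewer cells making a transcript and less transcript per cell cannot be told apart.

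With OR21 added, 160 genes were higher by 1 or more (2.07% of those measured) and 57 were lower by 1 or more (0.738%). A difference of 1 is a doubling or halving on the linear scale. By 2 or more, 22 genes were higher and 1 was lower. The median difference over measured genes was -0.01, the middle 50% ran from -0.23 to 0.26, and the SD was 0.44. In either direction 217 of the measured genes passed 1 (2.81%), against 32 of 2070 positive-control probe sets above background (1.55%). Of the negative-control probe sets, 38 counted as measured by the same rule, and 8 of these (21.1%) passed 1. How far the calls exceed array noise was not tested, and differences of genes near background are the least certain. Of all calls 73.7% were higher, a share that was 64.7% with each array centred on its median. It was 49.6% with each array centred on its median level of the reference genes, so the balance of directions depends on the scaling. That last centring did not bring the differences of the reference genes to 0. Their median difference was -0.235 after it, with 11 of 12 below 0, against -0.067 and 8 of 12 as deposited. With the 99th percentile of the negative controls as background, 87 of the 160 and 23 of the 57 remained.

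**Figure D1:**
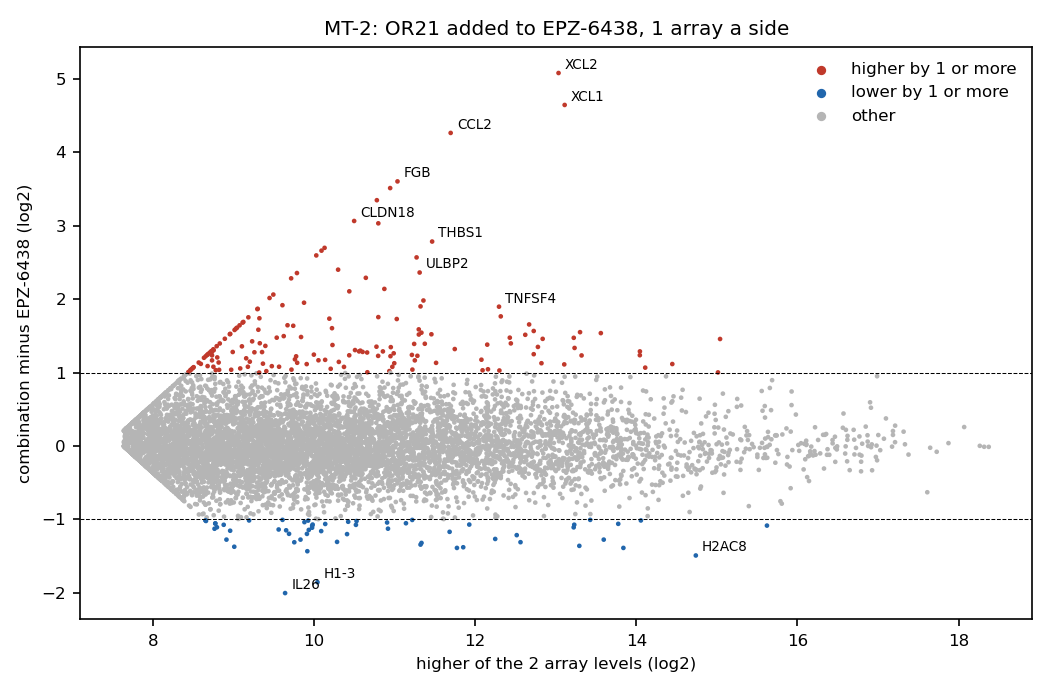
Difference between the combination and EPZ-6438 arrays of MT-2 (y axis, log2) against the higher of the 2 levels (x axis, log2) for 7722 measured genes, 1 point a gene. Red points (160) are higher and blue points (57) lower by 1 or more; XCL2, at 5.08, lies highest and IL26, at -2.00 or lower, lies lowest.

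Of the higher genes, 40 were at or under background on the EPZ-6438 array and 120 were already above it. The median level of the 160 was 10.2 on the combination array, 8.42 on the EPZ-6438 array, 9.41 on the OR21 array and 8.30 on the untreated array. For the 57 lower genes these medians were 8.98 with the combination, 10.14 with EPZ-6438, 9.54 with OR21 and 10.41 in untreated cells. On the EPZ-6438 array the higher genes thus stood low and the lower genes at a middle level, the median of all measured genes there being 9.77. That array was part of the contrast that picked the genes, so this is partly built in. On the untreated array, which the contrast did not use, the median of all measured genes was 9.78. Of the higher genes, 6 stood above background on the combination array and on none of the other MT-2 arrays.

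Chemokine genes held the highest differences. XCL1 and XCL2 encode the near-identical lymphotactins, which act on the receptor XCR1 of cross-presenting dendritic cells. XCL2 stood at 13.04 with the combination, against 7.96 with EPZ-6438, and at 10.21 with OR21 and 7.62 in untreated cells, a difference of 5.08. XCL1 stood at 13.11 with the combination, against 8.47 with EPZ-6438, and at 10.56 with OR21 and 8.14 in untreated cells, a difference of 4.64. Both were highest with the combination, intermediate with OR21 alone and near the untreated level with EPZ-6438 alone. Because their sequences are so alike, the array may not separate the 2 genes.

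CCL2, which recruits monocytes, stood at 11.70 with the combination and at or under background on the other 3 arrays (5.70 with EPZ-6438, 6.73 with OR21 and 4.93 untreated), a difference of at least 4.26. CCL20, the ligand of CCR6, stood at 10.95 with the combination, against 5.46 with EPZ-6438, and at 9.56 with OR21 and 4.83 untreated, a difference of at least 3.51. Its receptor CCR6 also differed, with 11.36 in combination-treated cells and 9.38 in EPZ-6438-treated cells (1.98). CCL1, the ligand of CCR8, stood at 12.32 with the combination and 10.55 with EPZ-6438 (1.76). Of 32 chemokine genes on the array 12 were measured. XCL1, XCL2, CCL2, CCL20 and CCL1 were the 5 higher by 1 or more (2.07% over all measured genes), and 2 were lower (0.738%). CCL2 and CCL20 were at or under background on the EPZ-6438 array, which fixes their sign. CXCL10, an interferon-inducible attractant of CXCR3-bearing T cells, stood at 8.98 with the combination and 10.29 with EPZ-6438 (-1.31). CXCL13, which attracts B cells, stood at 12.12 with the combination and 13.22 with EPZ-6438 (-1.11), and at 11.08 with OR21 alone, against 13.27 untreated. CCL3 differed by -0.29. The median over all 32 chemokine genes was 0.35, against 0.00 over all genes.

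Among cytokines, IL6, the acute-phase and B cell growth cytokine, stood at 11.27 with the combination, against 8.70 with EPZ-6438, and at 10.88 with OR21 and 8.18 untreated. Its difference of 2.57 beside 2.70 for OR21 over untreated cells shows values of similar size with and without EPZ-6438. IL6ST, the signalling receptor chain gp130 shared by the IL6 family, was also higher, at 11.32 with the combination and 9.42 with EPZ-6438 (1.90). IL13, a type 2 cytokine, stood at 9.08 with the combination, against 5.82 with EPZ-6438 (at least 1.64). IL26, a cytokine of the IL10 family made by Th17 cells, had the lowest difference of all genes, at 6.94 with the combination and 9.64 with EPZ-6438 (-2.00 or lower), and 7.99 with OR21, against 9.64 untreated. Of 39 cytokine genes on the array 9 were measured, 2 of them higher and 1 lower by 1 or more, against 2.07% and 0.738% of all measured genes. The other 6 lay between 0.19 (TGFB1) and 0.85 (EBI3), and the median over the 39 was 0.05.

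**Figure D2:**
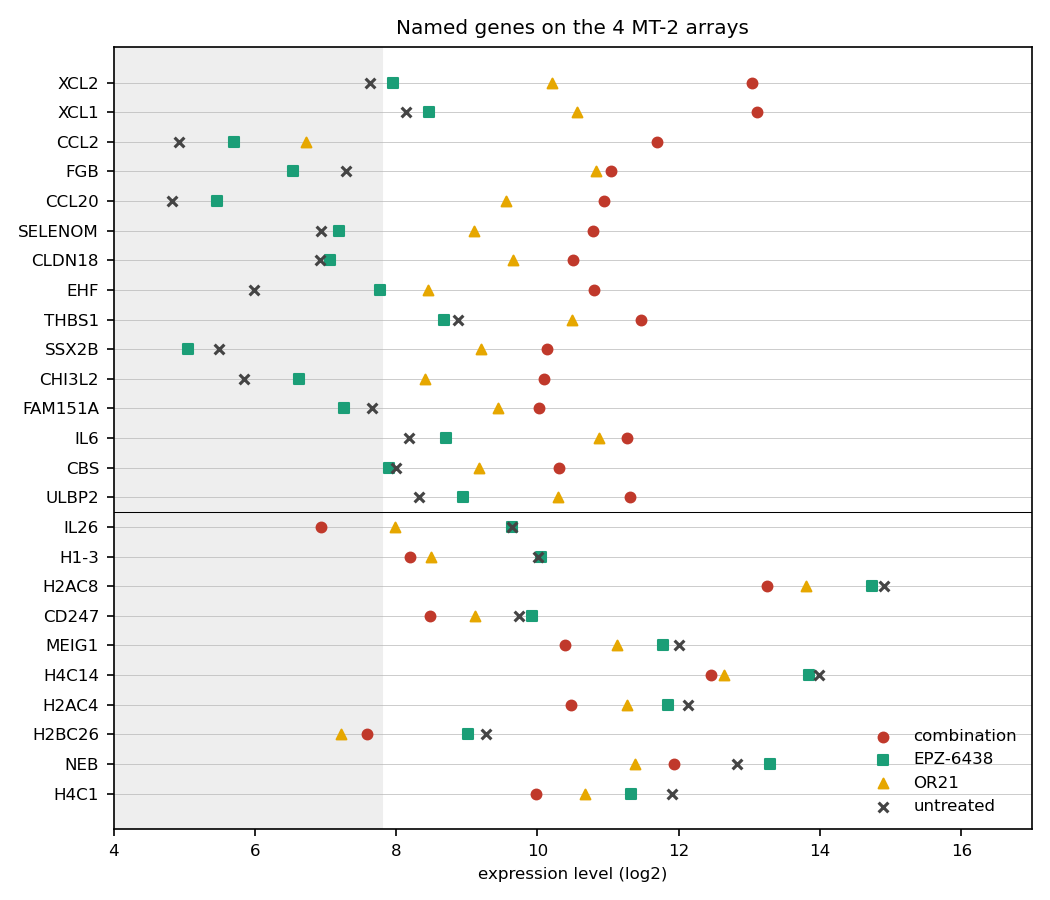
Levels (x axis, log2) of the 15 highest and, under the line, the 10 lowest genes on the 4 MT-2 arrays: combination (circles), EPZ-6438 (squares), OR21 (triangles) and untreated (crosses). The shaded part lies under the highest background level of the 4 arrays, 7.80; EPZ-6438 and untreated values lie close together for most genes, and OR21 values between these and the combination.

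Promoter windows of 4 genes that were higher are shown because OR21 acts on CpG dinucleotides, and capitals mark each CG. They come from RefSeq (GRCh38.p14), run 5′ to 3′ on the gene's strand and cover 250 bases before to 50 after the gene's start. The windows are XCL2 (chr1:168543948-168544247, minus strand), CCL20 (chr2:227813592-227813891, plus strand), ULBP2 (chr6:149941764-149942063, plus strand) and GTSF1 (chr12:54473553-54473852, minus strand).
XCL2: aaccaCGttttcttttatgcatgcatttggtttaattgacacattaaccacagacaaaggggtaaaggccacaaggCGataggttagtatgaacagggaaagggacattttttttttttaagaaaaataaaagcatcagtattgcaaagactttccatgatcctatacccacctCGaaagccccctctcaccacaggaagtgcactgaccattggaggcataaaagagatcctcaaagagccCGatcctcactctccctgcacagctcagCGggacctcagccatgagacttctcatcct
CCL20: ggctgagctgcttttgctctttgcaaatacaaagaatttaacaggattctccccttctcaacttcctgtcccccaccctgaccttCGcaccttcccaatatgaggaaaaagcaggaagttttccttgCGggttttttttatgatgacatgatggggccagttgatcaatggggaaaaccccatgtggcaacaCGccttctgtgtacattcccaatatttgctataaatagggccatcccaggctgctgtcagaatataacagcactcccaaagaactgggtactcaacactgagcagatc
ULBP2: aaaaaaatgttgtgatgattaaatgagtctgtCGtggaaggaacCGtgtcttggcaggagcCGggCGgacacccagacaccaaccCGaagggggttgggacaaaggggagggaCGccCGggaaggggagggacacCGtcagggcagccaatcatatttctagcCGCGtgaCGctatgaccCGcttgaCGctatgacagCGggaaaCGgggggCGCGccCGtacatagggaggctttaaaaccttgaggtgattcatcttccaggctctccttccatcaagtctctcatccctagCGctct
GTSF1: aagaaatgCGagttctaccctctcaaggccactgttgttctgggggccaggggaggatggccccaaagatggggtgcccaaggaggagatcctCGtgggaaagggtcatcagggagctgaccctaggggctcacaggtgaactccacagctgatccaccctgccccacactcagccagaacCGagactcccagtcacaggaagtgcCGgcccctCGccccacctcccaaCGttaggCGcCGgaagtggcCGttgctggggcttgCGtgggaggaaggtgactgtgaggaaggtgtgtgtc
The windows held 5 CG in XCL2, 3 in CCL20, 19 in ULBP2 and 10 in GTSF1. The median of the 6504 measured genes with a window was 26, with quartiles of 19 and 34. Over all 27305 genes with a RefSeq window, measured or not, it was 14, with quartiles of 3 and 28. FGB, among the 4 highest genes, had 0 in its first listed window and IL6 had 7. A window was found for only 120 of the 160 higher genes, under 80%, so the comparison of CG content over the higher genes is void and no set value is given. Methylation of these windows was not measured.

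Ligands of NKG2D, the activating receptor by which NK cells and CD8 T cells recognise stressed cells, included some of the higher genes. ULBP2 stood at 11.31 with the combination, against 8.95 with EPZ-6438, and at 10.29 with OR21 and 8.32 untreated, a difference of 2.36. ULBP3 stood at 10.00 with the combination, against 8.75 with EPZ-6438, and at 10.01 with OR21 and 8.73 untreated (1.24). RAET1L (9.45 with the combination and 7.25 with EPZ-6438) differed by at least 2.02 and ULBP1 (8.96 with the combination and 7.15 with EPZ-6438) by at least 1.52. Thus 4 of the 6 measured ligands, of 8 on the array, were higher by 1 or more, where 2.07% of all measured genes were. RAET1L and ULBP1 were at or under background on the EPZ-6438 array, which fixes their sign. The MHC-linked ligands MICA (-0.17) and MICB (0.37) stayed within 0.4 of 0. The median over all 8 was 1.18. The 4 ULBP and RAET1 genes lie on chromosome 6 and resemble each other in sequence. Their promoter windows held 27 (ULBP3), 26 (ULBP1), 19 (ULBP2) and 12 CG (RAET1L). With the 99th percentile as background, 2 of the 4 remained past 1.

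Costimulatory and checkpoint molecules followed. TNFSF4, the ligand of OX40, stood at 12.30 with the combination, against 10.40 with EPZ-6438, and at 10.03 with OR21 and 8.28 untreated (1.90). CD274, the inhibitory ligand PD-L1, stood at 11.33 with the combination, against 9.79 with EPZ-6438, and at 10.69 with OR21 and 9.63 untreated (1.54). Both were higher with OR21 whether or not EPZ-6438 was present, and TNFSF4 was also higher with EPZ-6438 alone than in untreated cells (2.11, against 0.16 for CD274). CD40 (10.37 with the combination and 9.30 with EPZ-6438, 1.08) and the lymphocyte receptor SLAMF1 (10.51 with the combination and 9.20 with EPZ-6438, 1.31) were also higher. Other ATL phenotype genes differed by less than 1. TNFRSF18 differed by -0.93, MYC by -0.76, CCR4 by -0.62, the ATL regulators BATF3 by -0.31 and IRF4 by -0.39, and IL2RA by 0.26, and the median of the 27 on the array was -0.19. CD247, the zeta chain that carries the T cell receptor signal, was lower, at 8.48 with the combination and 9.92 with EPZ-6438 (-1.43), and the adaptor LCP2 differed by -0.83. Of 12 measured genes of T cell identity and receptor signalling, CD247 was the 1 past 1 (0.738% lower over all measured genes). HLA genes stayed within 1. Class I genes ran from -0.03 (PDIA3) to 0.59 (TAP1) with a median of 0.24 over 16, and class II genes from -0.34 (HLA-DQB1) to 0.60 (HLA-DPB1) with a median of 0.27 over 12.

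Germline genes were higher only in part. SSX2B, a cancer-testis antigen, stood at 10.13 with the combination, against 5.05 with EPZ-6438, and at 9.20 with OR21 and 5.50 untreated, a difference of at least 2.70. SSX1 stood at 9.49 with the combination and 5.68 with EPZ-6438 (at least 2.06). GTSF1, which acts with piRNAs in germ cells, stood at 9.79 with the combination, against 3.21 with EPZ-6438, and at 8.61 with OR21 and 3.59 untreated, a difference of at least 2.36. PAGE2 stood at 8.68 with the combination and 7.39 with EPZ-6438 (at least 1.24). These 4 of 10 measured members, of 55 on the array, passed 1, against 2.07% of all measured genes, and 45 were not measured. With OR21 alone all 4 were above background too, SSX1 at 8.10 and PAGE2 at 8.84. Of the 2 arrays compared, all 4 were above background on the combination array alone, which fixes their sign. Of all 213 genes of that kind, 40 were higher by 1 or more. The median over the 55 was 0.14. With the stricter background 1 of the 4 remained past 1, and with no background level 15 members differed by 1 or more. SSX and PAGE genes have near-identical copies, so single genes are uncertain. The melanoma antigen PRAME, chosen after its values were seen, stood at 11.30 with the combination and 9.78 with EPZ-6438 (1.52).

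Further genes with high differences were of mixed kinds. FGB, the fibrinogen beta chain of liver, stood at 11.04 with the combination, against 6.54 with EPZ-6438, and at 10.84 with OR21 and 7.29 untreated (at least 3.60). CLDN18, a tight junction protein of stomach and lung, stood at 10.50 with the combination and 7.06 with EPZ-6438 (at least 3.06). EHF, an epithelial ETS factor, stood at 10.80 with the combination, against 7.77 with EPZ-6438, and at 8.45 with OR21 and 5.99 untreated (3.03). SFN, the checkpoint protein 14-3-3 sigma, stood at 9.72 with the combination and 6.87 with EPZ-6438 (at least 2.28). The adhesive glycoprotein THBS1 stood at 11.47 with the combination and 8.68 with EPZ-6438 (2.78), and the chitinase-like CHI3L2 at 10.09 with the combination and 6.63 with EPZ-6438 (at least 2.66). SELENOM, a selenoprotein of the endoplasmic reticulum, stood at 10.78 with the combination and 7.19 with EPZ-6438 (at least 3.35). CBS, which makes cystathionine from homocysteine, differed by 2.40 and FAM151A by at least 2.60. Epithelial genes were not higher as a class. Of 11 measured keratin, S100 and epithelial genes, of 35 on the array, SFN and S100A10 (1.002) passed 1 (2.07% over all measured genes), KRT8 differed by -0.34, and the median over the 35 was 0.14.

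Histone genes made up the largest group among the lower genes. H1-3, a linker histone, stood at 8.19 with the combination, against 10.04 with EPZ-6438, and at 8.49 with OR21 and 10.01 untreated, a difference of -1.86. H2AC8 stood at 13.25 with the combination, against 14.74 with EPZ-6438, and at 13.79 with OR21 and 14.90 untreated (-1.49). H2AC4 differed by -1.38, H4C1 by -1.34, H2BC7 by -1.32 and H2BC11 by -1.31. In each of these 6 the combination and OR21 arrays lay under the EPZ-6438 and untreated arrays. Of 38 measured histone genes on the list, of 48 on the array, 11 were lower by 1 or more, where 0.738% of measured genes were. The median over the 48 was -0.70, and 35 of the 38 lay below 0. H1-1 went the other way, at 9.12 with the combination and 6.66 with EPZ-6438 (at least 1.69). Counted by symbol over all replication-dependent families, a count made after the values were seen, 14 of 46 measured genes were lower by 1 or more, 9 on chromosome 6 and 5 on chromosome 1. H4C14 (-1.39) and H4C15 (-1.27) are among these. With the stricter background 6 of the 11 remained past 1. Members of these families are near copies, so probe sets may share signal.

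Promoter windows of H1-3 (chr6:26234938-26235237, minus strand) and H2AC8 (chr6:26216671-26216970, plus strand) are shown for the motifs that histone promoters share. Capitals mark CCAAT and TATAAA on either strand, and sequences are again from RefSeq (GRCh38.p14).
H1-3: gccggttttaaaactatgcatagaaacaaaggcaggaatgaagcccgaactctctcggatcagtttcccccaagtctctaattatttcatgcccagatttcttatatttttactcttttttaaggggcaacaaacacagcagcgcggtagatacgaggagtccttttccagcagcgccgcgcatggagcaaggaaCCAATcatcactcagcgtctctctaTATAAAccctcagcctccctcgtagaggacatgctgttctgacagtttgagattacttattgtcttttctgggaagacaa
H2AC8: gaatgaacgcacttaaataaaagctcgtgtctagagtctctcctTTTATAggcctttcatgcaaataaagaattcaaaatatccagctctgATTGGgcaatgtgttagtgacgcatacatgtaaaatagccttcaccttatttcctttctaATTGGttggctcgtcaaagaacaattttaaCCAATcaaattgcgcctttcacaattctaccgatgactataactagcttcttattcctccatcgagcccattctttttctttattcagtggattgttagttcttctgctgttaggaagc
Of the 43 measured histone genes with a window, of 46, 36 held CCAAT (83.7%) and 29 held TATAAA (67.4%) on either strand. Over the 6504 measured genes with a window these shares were 37.9% and 5.64%. Over all 27305 genes with a RefSeq window of this length, 35.7% held CCAAT and 3264 genes held TATAAA. A match is a description of letters and not a shown binding site.

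Genes of DNA replication and mitosis lay below 0 almost throughout, few of them past 1. Histone messages accumulate with DNA synthesis. The replication genes TK1 (thymidine kinase, -1.17) and MCM6 (a subunit of the replicative helicase, -1.04) passed 1 (0.738% lower over all measured genes). MCM6 stood at 9.86 with the combination, against 10.91 with EPZ-6438, and at 10.00 with OR21 and 11.14 untreated. MCM2 (-0.996) and GINS1 (-0.90) lay just inside 1, and 21 of 23 measured replication genes lay below 0, against 50.6% of all measured genes. Their median was -0.39 over the 30 on the array. All 30 mitosis genes were measured and all 30 lay below 0, from -0.04 (BUB1B) to -0.79 (BIRC5, survivin), with a median of -0.39 and none past 1. CCNB1 differed by -0.74, CDC20 by -0.70 and MKI67 by -0.33. The mitosis genes were all below 0 under each of the 3 other scalings, and the replication genes in 22 of 24, 22 of 24 and 25 of 26. The checkpoint kinase CHEK1 (-1.07), the mismatch repair protein MSH6 (-1.07), the histone chaperone ASF1A (-1.20) and the kinetochore protein CENPU (-1.05), chosen after their values were seen, were lower too. Cell number and cycle phase were not measured.

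As deposited, the DNA methylation machinery gave no single direction, with 8 of 15 measured members above 0 and a median of 0.04 over the 17 on the array. Below 0 lay 9 of the 15 with arrays centred on their medians, 6 with cyclic loess and 13 with the reference genes. DNMT1 stood at 9.71 with the combination, against 10.24 with EPZ-6438, and at 10.10 with OR21 and 10.58 untreated (-0.53). UHRF1, which brings DNMT1 to replicated DNA, stood at 10.61 with the combination, against 11.60 with EPZ-6438, and at 11.55 with OR21 and 12.16 untreated (-0.99). HELLS, a chromatin remodeller needed for DNA methylation, stood at 9.79 with the combination, against 10.92 with EPZ-6438, and at 10.67 with OR21 and 10.74 untreated (-1.13). HELLS was thus lowest on the combination array and alike on the other 3. DNMT3A differed by 0.12, DNMT3B by 0.00 and TET2 by 0.17. Of the 15, HELLS alone passed 1 (0.738% lower over all measured genes), and MBD3 differed by -0.80. EZH2 itself differed by -0.29, and no PRC2 gene or H3K27 demethylase passed 1 (11 measured, from -0.53 for MTF2 to 0.37 for LCOR). Transcript levels do not report enzyme activity. Of the genes that handle deoxycytidine analogues, the activating kinase DCK differed by -0.14, the transporter SLC29A1 by 0.44 and the p53-induced subunit RRM2B by 0.51, and none of 14 measured passed 1.

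Most targets of p53 lay above 0. ZMAT3 stood at 10.60 with the combination, against 9.32 with EPZ-6438, and at 9.69 with OR21 and 9.10 untreated (1.28). SESN1 (sestrin 1, an antioxidant stress protein) differed by 1.18, PLK2 by at least 1.01 and MDM2, which degrades p53, by 0.86. Of 23 measured targets, of 30 on the array, 3 were higher by 1 or more (2.07% over all measured genes) and none lower (0.738%). Above 0 lay 22 of the 23, against 49.4% of all measured genes. The median over the 30 was 0.38. The cell cycle inhibitor CDKN1A differed by 0.34 and BAX by 0.01. Under the other scalings 21 of 23, 22 of 23 and, with the reference genes, 19 of 23 lay above 0. Metallothioneins, small metal-binding proteins, were all above 0 in the 7 measured of 10 on the array. MT1G stood at 13.11 with the combination and 11.995 with EPZ-6438 (1.11), and the median over the 10 was 0.66. With arrays centred on the reference genes, 6 of the 7 lay above 0 and none passed 1.

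Interferon-stimulated genes gave no single direction. IFI6 (1.14) and SAMD9L (1.09) passed 1 (2.07% over all measured genes), and the RNA sensor DHX58 differed by at least 0.91. IRF9, a subunit of the interferon-activated factor ISGF3, differed by -0.73. The list had 20 measured of 40 on the array, 13 above and 7 below 0, with a median of 0.12 over the 40. IFI16 (-1.27) and TNFSF10 (the death ligand TRAIL, -1.31), outside this list, were lower. Of 21 measured NF-kappaB targets and regulators CD40 passed 1 (2.07% higher over all measured genes). ICAM1 differed by 0.90 and VCAM1 by -0.83 or lower, and the median over 23 was 0.17. Enzymes of cholesterol and fatty acid synthesis lay below 0 in 19 of 25 measured, against 50.6% of all measured genes, with a median of -0.37 over 26. SCD, the stearoyl-CoA desaturase, alone passed 1 (-1.06, with 0.738% lower over all measured genes), and HMGCS1 differed by -0.82. Polycomb-target developmental regulators lay above 0 in all 11 measured of 48 on the array, against 49.4% of all measured genes, with a median of 0.22 over the 48. The lowest of the 11 was 0.012. With arrays centred on their medians, and likewise on the reference genes, 10 of the 11 lay above 0. Of the 2 arrays compared, HOXC8 and SOX2 were above background on the combination array alone, which fixes their sign. With OR21 alone SOX2 stood at 8.57, against 8.51 with the combination, and HOXC8 was under background (7.38). HOXC8 differed by at least 1.40, SOX2 by at least 1.07 and GATA4 by 0.94, and 37 members were not measured. Of genes reported silenced in T cell leukaemia, the phosphatase DUSP5 passed 1 (1.03), and BCL2L11 (-0.75) and ZEB1 (-0.74) lay lowest.

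Other lists held no member past 1. With arrays centred on the reference genes, the medians over measured members changed sign to -0.06 for the stress response list, -0.02 for CDK inhibitors and -0.10 for the BCL2 family. The median of the B cell, myeloid, NK cell and erythroid markers changed sign too (-0.11). So did those of 2 lists described above that do hold members past 1, the epithelial genes (-0.10) and the DNA methylation machinery (-0.17). Under this centring the median of the reference genes themselves was -0.235. As deposited, median differences over all members on the array were 0.06 for the integrated stress and unfolded protein response (29 genes), -0.02 for CDK inhibitors and G1 cyclins (18), -0.15 for ribosome biogenesis and MYC (20), 0.13 for the BCL2 family (16), -0.11 for the respiratory chain (24) and -0.07 for both the chromosome 19 zinc finger genes (69) and the reference genes (12). They were 0.13 for B cell, myeloid, NK cell and erythroid markers (24), 0.27 for endothelial and fibroblast markers (17) and 0.06 for endogenous retroviral envelope genes (7). The anti-apoptotic BCL2L1 differed by 0.83 and XBP1, a factor of the unfolded protein response, by 0.92. The NK cell granule gene NKG7 stood at 11.41 with the combination and 10.85 with EPZ-6438 (0.56), and the B cell kinase BLK at 9.96 with the combination and 10.34 with EPZ-6438 (-0.38).

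**Figure D3:**
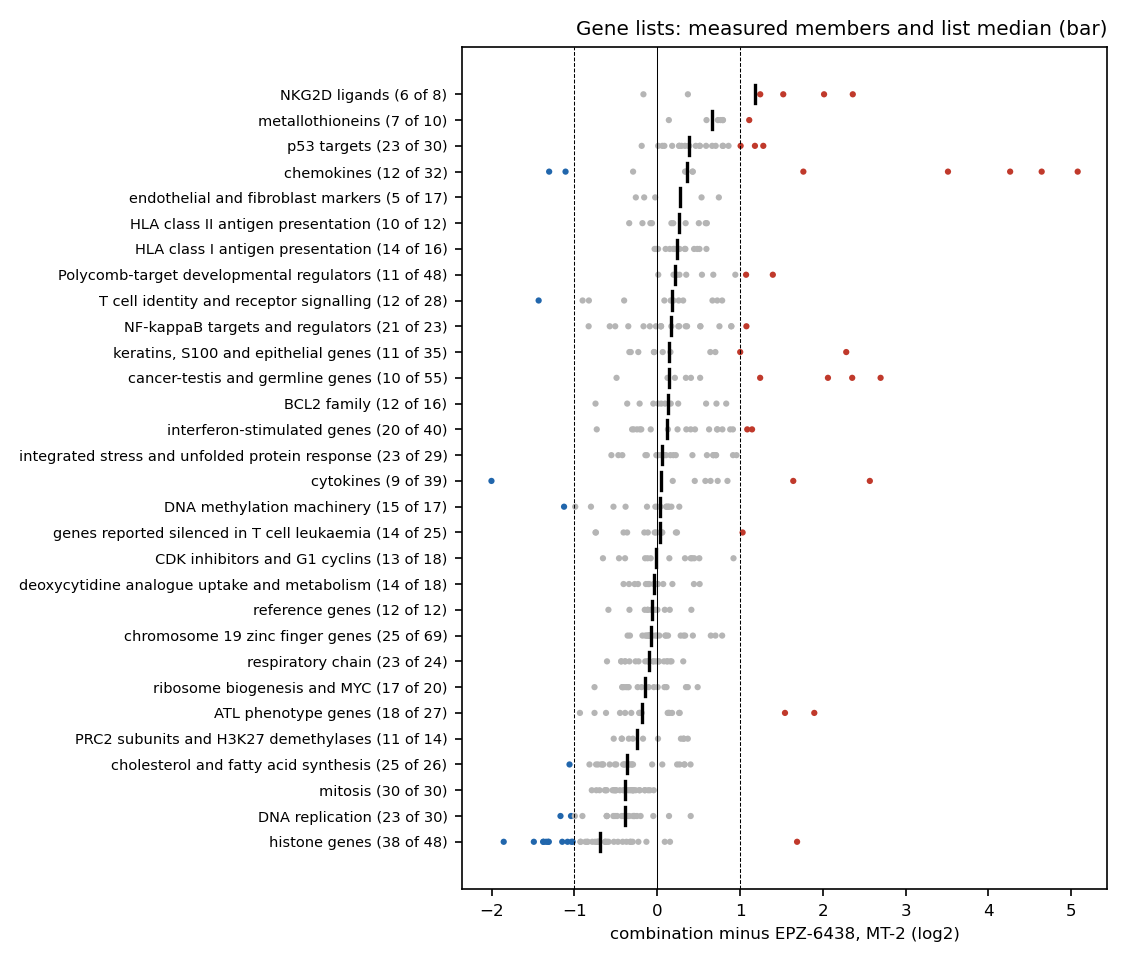
Combination minus EPZ-6438 in MT-2 (x axis, log2) for the measured members (points) of each list with 5 or more measured; the bar is the median over all members on the array, and the label gives measured members of members on the array. NKG2D ligands have the highest median (1.18) and histone genes the lowest (-0.70).

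The effect of OR21 without EPZ-6438 was available from the other pair of MT-2 arrays, OR21 and untreated, which share no array with the pair above. Across the 7215 genes measured in both, the differences correlated at r = 0.597 (Spearman 0.515), a description over genes of 4 arrays normalized together. Of the 160 genes higher with EPZ-6438 present, 50 (31.2%) were also higher by 1 or more without it, which is 65.8% of the 76 higher there, where 1.04% of measured genes were higher. Of the 145 measured there, 142 lay above 0, against 39.7% of all genes measured in both. Of the 160, 56 were at or under background on the untreated array, and where measured these can only lie above 0. The 142 is thus partly fixed by the background rule, and the 39.7% is not matched for this. Of the 57 lower genes, 23 (40.4%) were also lower by 1 or more, 22.8% of the 101 lower there (1.38% of measured genes), and all 57 lay below 0, against 60.3%. None of the 217 went the opposite way by 1 or more.

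**Figure D4:**
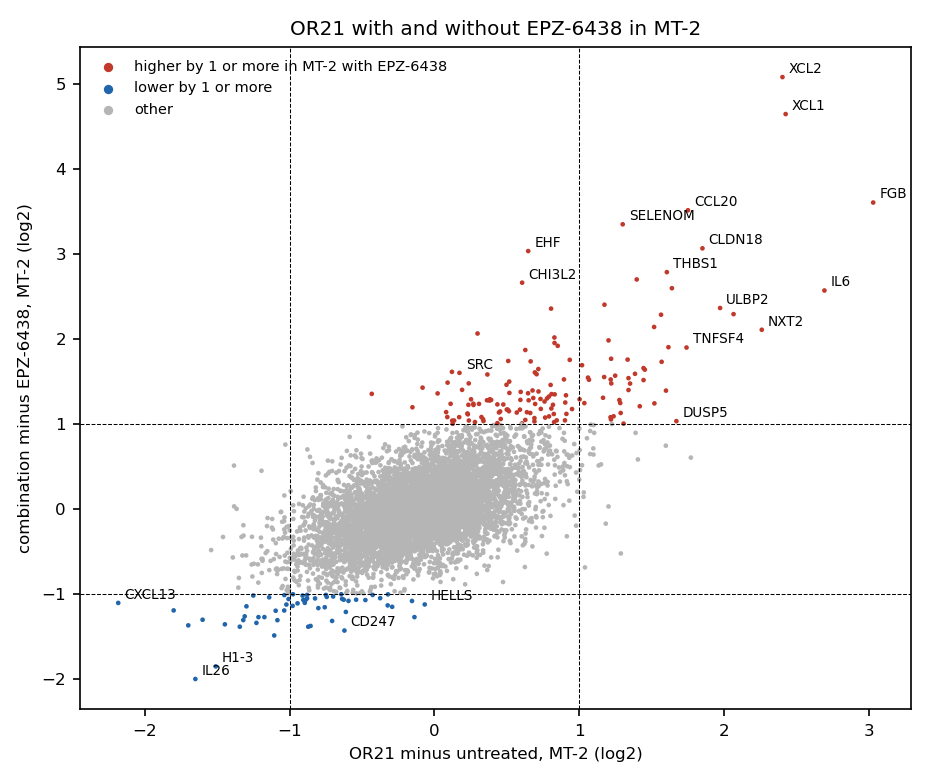
OR21 added to EPZ-6438 (y axis) against OR21 alone over untreated cells (x axis), both in MT-2 and in log2 units, for the 7215 genes measured in both. XCL2 lies at 5.08 and XCL1 at 4.64 on the y axis and both near 2.4 on the x axis, while IL6 (2.57 and 2.70) and NXT2 (2.11 and 2.26) have similar values on both.

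Genes past 1 in both settings included FGB (at least 3.60 with EPZ-6438 present and at least 3.03 without), IL6, ULBP2 (2.36 and 1.97), TARS3 (2.29 and 2.07), the mRNA export factor NXT2 (2.11 and 2.26) and CLDN18 (at least 3.06 and at least 1.85). Lower in both settings were IL26 (-2.00 or lower and -1.65), H1-3 (-1.86 and -1.51), H2BC26 (-1.37 or lower and -1.70 or lower), the giant muscle protein NEB (-1.36 and -1.45), H4C14 (-1.39 and -1.34) and H2BC11 (-1.31 and -1.32). The difference with EPZ-6438 minus that without it had a median of 0.10 and an SD of 0.38 over the 7215 genes, and was 1 or more in 99 and -1 or less in 25. XCL1 had a value of 2.22, with all 4 levels above background. XCL2 had 2.67, EHF 2.38, CHI3L2 2.05, SELENOM 2.05 and TBC1D3L 1.89, but each of these 5 has an MT-2 level at or under background, so the size is not settled. At the other end were PDZD4 (-0.53 with and 1.29 without), MRPL38 (-0.69 and 1.04), ODF2L (-0.18 and 1.18) and SDCCAG8 (-0.86 and 0.47). These rest on 4 arrays and no interaction was tested.

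MT-1 cells, at 5 times the doses, gave the same contrast on 2 further arrays, and values are set side by side because the doses differ. There 622 genes were higher (7.12% of 8739 measured) and 562 lower (6.43%) by 1 or more. Of the 160 higher in MT-2, 33 (20.6%, and 5.31% of the 622) were also higher by 1 or more in MT-1, 9 were lower, and 61 were not measured in MT-1. Of the 57 lower in MT-2, 11 (19.3%, and 1.96% of the 562) were also lower and 4 were higher. The correlation across 7114 genes was r = 0.232 (Spearman 0.225). Genes higher in both lines included SSX2B (at least 2.70 in MT-2 and at least 8.21 in MT-1), SSX1 (at least 2.06 and at least 7.34), CHI3L2 (at least 2.66 and at least 2.98), SFN (at least 2.28 and 2.44), ULBP2 (2.36 and 2.01) and DUSP5 (1.03 and at least 3.42). XCL1, XCL2, CCL2, CCL20, IL6 and IL13 were not above background on either MT-1 array. The difference of GTSF1 was at least 2.36 in MT-2, against -0.005 in MT-1. In MT-1 GTSF1 was already high, at 14.64 with the combination, 14.65 with EPZ-6438 and 14.65 untreated. The mitosis genes, all below 0 in MT-2, were split in MT-1, with 16 of 30 above 0 and a median of 0.02. Cholesterol and fatty acid synthesis genes were lower by 1 or more in 1 of 25 measured in MT-2 and 18 of 25 in MT-1.

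**Figure D5:**
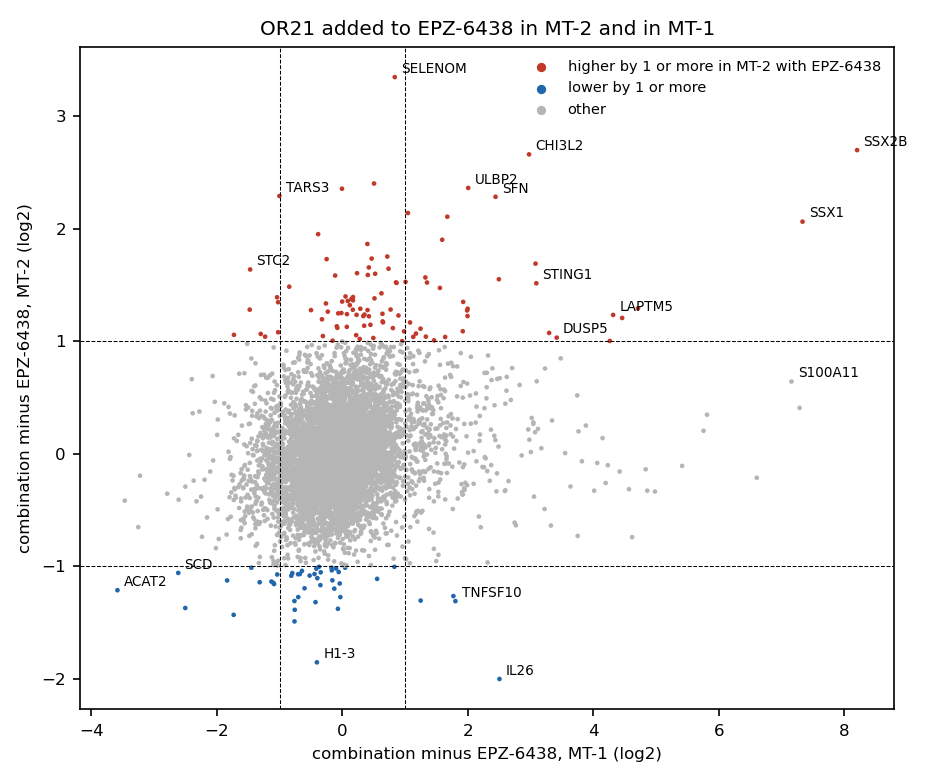
OR21 added to EPZ-6438 in MT-2 (y axis) against the same contrast in MT-1 at higher doses (x axis), log2, for the 7114 genes measured in both lines. SSX2B and SSX1 lie far to the right, and IL26 lies at -2.00 (or lower) in MT-2 and at least 2.50 in MT-1.

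The higher genes were spread over the chromosomes. They made up 2.07% of all measured genes. The share was 3.17% on chromosome 1, 4.04% on chromosome 20 and 2.93% on chromosome X, against 0.221% on chromosome 19 (1 of 452) and 0 of 106 on chromosome 18. Lower genes made up 0.738% of all measured genes, with 3.17% on chromosome 6 (14 of 442) and 1.71% on chromosome 1 (14 of 821). Replication-dependent histone genes were 9 of the 14 on chromosome 6 but only 5 of the 14 on chromosome 1. Chromosomes 4 (1.45%) and 10 (1.33%) also lay above the share over all measured genes.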

How the data were processed

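Human MT-2 and MT-1 cells were profiled on 1-colour Affymetrix arrays, 1 array per line and treatment. The deposited log2 values were made with RMA, per the submitters' processing notes, in a version not given in the sources used here. No log base is stated, so base 2 rests on RMA. Of 24351 entries, 612 negative, 2197 positive and 94 other controls were set apart. The platform annotation gave 1 symbol for 17709 of 21448 transcript probe sets, several for 0 and none for 3739; 22 further probe sets of a gene were dropped in favour of that with the highest mean over the 8 arrays.

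Differences were computed in Python 3.11.15 (pandas 2.3.3), with cyclic loess in limma 3.58.1 (R 4.3.3), and the calculation was tested on simulated data. No test was run, since there is 1 array a side, which limits precision. Calls pass a threshold of 1.

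Genes named are the 15 highest and 10 lowest, those past 1 with and without EPZ-6438 (8 higher, 6 lower), up to 4 members of each of 32 lists, DNMT1, DNMT3A, DNMT3B, UHRF1 and EZH2, the 6 highest and 4 lowest differences between these settings, and 5 opposite in MT-1. Further genes were chosen after their values were seen. The contrast, lists and rule were chosen with earlier results of these data known. Alternatives covered background level, filter, scaling and threshold. Promoters were matched to RefSeq by gene identifier for 6504 of 7722 measured genes, taking the first window listed.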

Additional observations from a re-analysis of the deposited data

Results flagged for a closer look

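Some genes passed 1 in opposite directions when OR21 was added to EPZ-6438 in MT-2 and in MT-1, at different doses; the difference between the lines was not tested. Lower in MT-2 and higher in MT-1 were IL26 (-2.00 or lower in MT-2 and at least 2.50 in MT-1), TNFSF10 (-1.31 and at least 1.80), CXCL10 (-1.31 and 1.25) and the DNA sensor IFI16 (-1.27 and 1.77). CXCL10 stood at 8.98 with the combination and 10.29 with EPZ-6438 in MT-2, and at 13.33 with the combination and 12.08 with EPZ-6438 in MT-1. Higher in MT-2 and lower in MT-1 were TARS3 (2.29 and -1.003), the secreted glycoprotein STC2 (1.64 and -1.47), SLC43A3 (1.39 and -1.04), UROS of haem synthesis (1.35 and -1.02) and CHPF (1.28 and -1.48). The same held for DENND4C (1.08 and -1.02), AIG1 (at least 1.06 and -1.30), the oxysterol hydroxylase CYP7B1 (1.06 and -1.73) and the transcription factor NFIL3 (1.04 and -1.23).

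Among 1129 measured transcript probe sets without a gene symbol, which the comparison did not use, the addition of OR21 to EPZ-6438 in MT-2 gave 23 that were higher and 13 that were lower by at least 1.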

How the results depend on the processing

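The higher count of 160 became 87 and the lower count of 57 became 23 with the 99th percentile of the negative controls as background, 322 and 91 with their median, 358 and 103 with no background level, and 308 and 86 with the filter on the highest value over 8 arrays; the background sets how many dim genes can pass. At a threshold of 1.5 they were 56 and 2, and at 0.5 they were 854 and 647. With arrays centred on the reference genes they were 116 and 118. This centring put the median difference of measured genes at -0.16 and that of the reference genes themselves at -0.235. The shares of higher and lower genes also past 1 in MT-1 were 14.9% and 8.70% with the stricter background, and for lower genes 0% at a threshold of 1.5, where 100% of the 2 lower genes also passed in the other MT-2 pair. Of the 152 named genes, none that passed 1 changed sign under any alternative that gave it a value. Sign changes of named genes with smaller differences were not counted. With the stricter background 44 named genes had no value. No paired analysis was possible because each group has 1 array, and no array could be left out. Levels near background and the lack of replicates limit the rest.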

Other observations

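Genes described here were chosen after their values were seen, and are values only. Several lysosomal genes were higher when OR21 was added to EPZ-6438 in MT-2. The protease cathepsin D (CTSD) stood at 11.38 with the combination and 9.98 with EPZ-6438 (1.39), the acid phosphatase ACP2 at 9.40 with the combination and 8.03 with EPZ-6438 (1.36), the chitobiase CTBS at 9.23 with the combination and 7.81 with EPZ-6438 (1.43) and the lysosomal membrane protein LAPTM5 at 13.32 with the combination and 12.09 with EPZ-6438 (1.23). Single receptors of lymphocytes differed by 1 or more. The B cell follicle receptor CXCR5 stood at 8.75 with the combination and 6.58 with EPZ-6438 (at least 1.32), GPR171 at 9.11 with the combination and 5.72 with EPZ-6438 (at least 1.68), and IL18R1 at 9.20 with the combination and 8.05 with EPZ-6438 (1.15). Of innate sensors, STING1, the adaptor of cytosolic DNA sensing, stood at 12.62 with the combination and 11.11 with EPZ-6438 (1.51). TLR7, a receptor of single-stranded RNA, stood at 10.44 with the combination and 9.20 with EPZ-6438 (1.24). The DNA sensor IFI16 went the other way, at 10.98 with the combination and 12.25 with EPZ-6438 (-1.27).

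Cornified envelope genes of skin on chromosome 1, which have near copies, were higher together: LCE1B by at least 1.46, LCE1C by 1.25 and LCE1E by 1.24. LCE1E stood at 14.04 with the combination and 12.81 with EPZ-6438, among the highest levels of any gene past 1. SERPINA1, the acute-phase inhibitor alpha-1 antitrypsin of liver, stood at 15.04 with the combination, against 13.58 with EPZ-6438, and at 13.26 with OR21 and 12.45 untreated. The ETS factor ETS1 was lower, at 12.16 with the combination and 13.23 with EPZ-6438 (-1.07).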
